A study of Mus musculus with 6 samples.

Results

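RNA-seq counts of 10 genes grouped under macrophage identity and scavenger receptors were followed in mouse T cells. These cells had been cocultured with myeloid cells treated or not treated with DB2313. The genes encode the lysozymes Lyz1 and Lyz2, the identity markers Adgre1, Cd68 and Mpeg1, and the uptake receptor Mertk. The others encode the scavenger receptors Marco, Msr1, Cd163 and Stab1. The 10 genes were taken by gene name, and all were found among the 54532 genes of the deposited table. The 6 libraries carry the label of primary T cells and form a control group of 3 and a DB2313 group of 3. The T cells were splenic CD8T cells of mice, stimulated with beads against CD3 and CD28, and they shared the culture for 24 hr with as many macrophages. The macrophages were thioglycolate-elicited cells of the peritoneum and had been activated for 12 hr with IFN-γ at 10 ng/mL. In the DB2313 group they had also received 14 nM DB2313, which inhibits the transcription factor Spi1 (PU.1). In the control group they received no DB2313. GEO's labels call the cocultured cells DC cells, where the methods call them macrophages. The groups follow the treatment label of each sample, while a protocol text naming DB2313 is repeated for all 6. Strain, sex and age of the mice used for these cells, and whether the 3 samples of a group came from separate cultures, are not given in the sources used here, so p-values measure the spread between these samples, which may be technical. The CD8T cells were collected after coculture, and no further separation from the macrophages is described for RNA-seq.

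Macrophages take up modified lipoproteins, bacteria and dying cells through scavenger receptors, a structurally mixed group of membrane proteins that bind polyanionic ligands. Marco and Msr1 are collagen-like class A receptors, Cd163 clears hemoglobin bound to haptoglobin, and Stab1 (stabilin-1) internalises oxidised lipoproteins and matrix fragments. Mertk binds phosphatidylserine on apoptotic cells through the bridging proteins Gas6 and Pros1. In atherosclerotic plaques, uptake through Msr1 and Cd36 contributes to foam cells, and Mertk to the clearance of dead cells. Adgre1 encodes the F4/80 antigen, Cd68 a late endosomal glycoprotein, Mpeg1 the pore-forming protein perforin-2, and Lyz2 the lysozyme of mouse myeloid cells. None of them is in use as a T cell marker.

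Each library held between 16611975 and 18596217 counts on genes. The 18 T cell markers examined, Cd3e and Cd8a among them, were all counted. With the scaling and threshold given below, all 18 were higher with DB2313, beside 20.8% of all tested genes. The 18 markers took 0.308% to 0.310% of the counts in the control libraries and 0.502% in the DB2313 libraries. The 10 genes described took 0.943% to 0.965% of the counts in the control libraries and 0.305% to 0.309% in the DB2313 libraries. In such RNA from a culture of mixed cells, fewer cells of a type and less RNA per cell cannot be told apart. The part that the higher T cell share had in the lower values of macrophage genes was not tested. Counts were scaled with TMM, a scaling that takes most genes as unchanged, and given as CPM, the counts scaled to a common library total.

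Of the 10 genes, 9 had enough counts to be tested, and Lyz1 had not. With Benjamini-Hochberg adjustment over 14883 genes and a threshold of 0.05 on the adjusted p of edgeR's quasi-likelihood test, 8 were lower and 1, Marco, was higher with DB2313, although the direction of Cd68 turned and the call of Marco was lost under other scalings given further on. Among all tested genes, 24.6% were lower and 20.8% higher by this rule. With an added threshold of 1 on the absolute log2 fold change, 7 of the 9 were lower and none was higher, beside 5.3% and 1.37% of all tested genes. Cd163 passed the filter on low counts through its control libraries. All 3 of these were over the cutoff of 0.563 CPM, against 1 DB2313 library, so Cd163 counts for little in these numbers. No tested gene of the 9 had overlapping groups. Of all tested genes, 27.5% had all control libraries above all DB2313 libraries, and 25.6% had the opposite.

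**Figure D1:**
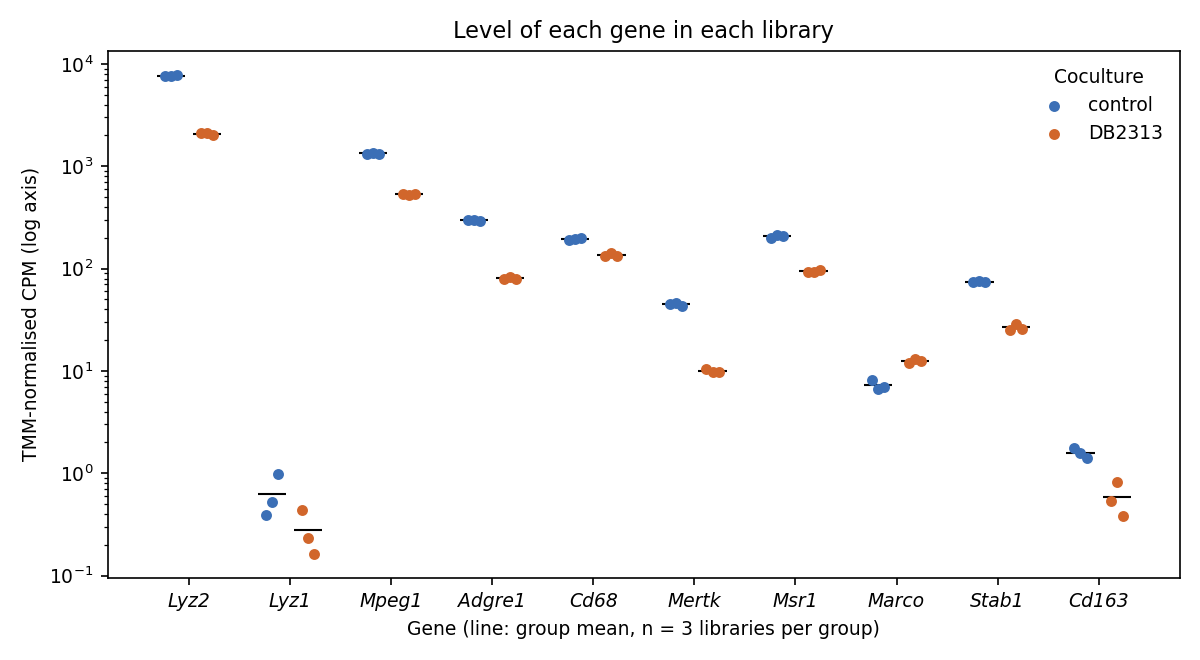
TMM-normalised CPM of the 10 genes in each of the 6 libraries on a log axis, with points for libraries and lines for the mean of each group (n = 3 each). The control libraries lie above the DB2313 libraries in 8 genes, Marco lies higher with DB2313, and the 2 groups overlap in Lyz1. These directions are those with TMM scaling, and Cd68 turns when libraries are scaled to other macrophage genes.

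Lysozyme 2 accounted for most of the counts of these genes and had the highest level per length. Lyz2 (ENSMUSG00000069516, chromosome 10 of GRCm38 from 117277331 to 117282321, minus strand) took 78.1% of the counts of the 10 genes without and 70.0% with DB2313. It was at 7667, 7591 and 7849 CPM in the control libraries and at 2102, 2108 and 2042 CPM in the DB2313 libraries. The control libraries were all high and close to each other, and the DB2313 libraries were all low. The mean went from 7702 ± 133 to 2084 ± 36.6 CPM (SD, n = 3 each), a log2 fold change of -1.89 (standard error, SE, 0.028, edgeR adjusted p = 1.70e-23). The remaining level was 27.1% of the control level. Lyz2 is also a gene of neutrophils, and 8 of the 9 neutrophil markers examined were lower as well, beside 24.6% of all tested genes, with a summed share of 0.188% to 0.189% of the counts in the control libraries and 0.0708% to 0.0725% with DB2313. The other marker, Retnlg, was higher at a log2 fold change of 1.39 (SE 0.51), with 15 counts in control and 42 in DB2313 libraries. None of these 9 markers was at 0 in all libraries, and their part in the Lyz2 result was not tested.

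Lyz1, the lysozyme of intestinal Paneth cells, lies next to Lyz2 on the same strand (ENSMUSG00000069515, 117287797 to 117292868). The control libraries held 7, 9 and 16 counts of it and the DB2313 libraries 8, 4 and 3 counts, so the groups overlapped. The exact two-sided permutation test gave p = 0.2, with 0.1 as the smallest value that 3 against 3 libraries allow, so this design could not pass 0.05. Without a filter on low counts, its log2 fold change was -1.15 (SE 0.65, edgeR adjusted p = 0.217). Because the 2 lysozymes are close copies, the first 120 bases of their coding sequences (GENCODE release M21 transcripts) are shown, with the 11 bases that differ in capitals.
Lyz2: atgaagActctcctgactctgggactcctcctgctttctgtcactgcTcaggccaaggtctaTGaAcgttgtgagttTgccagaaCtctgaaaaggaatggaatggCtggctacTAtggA
Lyz1: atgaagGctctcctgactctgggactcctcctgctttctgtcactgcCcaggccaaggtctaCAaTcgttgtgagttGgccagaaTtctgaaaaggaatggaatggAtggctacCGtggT
Over the 447 coding bases, 425 were identical, or 95.1%. Of all stretches of 50 bases in the Lyz1 transcript, 16.1% also occurred in the Lyz2 transcript. How the counting treated reads that match both genes is not given in the sources used here, and the few Lyz1 counts beside 35962 to 138332 counts of Lyz2 are therefore uncertain. The sum of both genes had the same log2 fold change as Lyz2 alone, -1.89, since so few Lyz1 counts could not move it. That sum does not show how reads matching both genes were counted.

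The identity markers fell by unequal amounts with TMM scaling, and Cd68 turned with scaling to the other core macrophage genes. Mpeg1 (ENSMUSG00000046805, chromosome 19 from 12460779 to 12465284) was at 1332, 1340 and 1333 CPM in the control libraries and at 531, 528 and 540 CPM in the DB2313 libraries. The spread within each group was near the counting error, with coefficients of variation of 0.320% and 1.18% against 0.660% and 1.02% from counting alone. Its mean went from 1335 ± 4.28 to 533 ± 6.28 CPM (SD, n = 3 each), with a log2 fold change of -1.33 (SE 0.030, edgeR adjusted p = 2.00e-20). Adgre1 (ENSMUSG00000004730, chromosome 17 from 57358691 to 57483527) was at 297, 299.7 and 295 CPM in the control libraries and at 79.4, 82.3 and 79.1 CPM with DB2313. Its log2 fold change was -1.89 (SE 0.037, edgeR adjusted p = 1.66e-21), and 27.0% of the control level remained. The macrosialin gene Cd68 (ENSMUSG00000018774, chromosome 11 from 69664213 to 69666153) was at 191, 196 and 199.6 CPM in the control libraries and at 133, 141 and 134 CPM in the DB2313 libraries. These groups did not overlap, but they lay closer together than those of the other 2 identity markers, and 69.6% of the control level remained. The log2 fold change of Cd68 was -0.52 (SE 0.038, edgeR adjusted p = 4.76e-11), although it was 0.23 when libraries were scaled to the other core macrophage genes.

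Mertk had the largest fitted fall among the 9 tested genes. This receptor tyrosine kinase (ENSMUSG00000014361, chromosome 2 from 128698956 to 128802894) was at 44.9, 46.4 and 43.5 CPM in the control libraries and at 10.4, 9.85 and 9.84 CPM in the DB2313 libraries. The control libraries were all more than 4 times as high as any DB2313 library. Its log2 fold change was -2.16 (SE 0.080, edgeR adjusted p = 2.04e-16), a 4.47-fold lower level with DB2313. An antisense gene and a small nucleolar RNA gene overlap Mertk, with 2 counts and 1 count in the 6 libraries together.

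The 4 scavenger receptors differed in direction. Msr1, the type A scavenger receptor CD204 (ENSMUSG00000025044, chromosome 8 from 39581685 to 39642673), was at 201, 211 and 211 CPM in the control libraries and at 92.0, 92.7 and 96.7 CPM with DB2313. All control libraries were high, and the log2 fold change was -1.15 (SE 0.039, edgeR adjusted p = 3.96e-17). Stab1 (ENSMUSG00000042286, chromosome 14 from 31139013 to 31168641) was at 74.0, 75.5 and 73.9 CPM in the control libraries and at 25.4, 28.9 and 25.8 CPM with DB2313. Its log2 fold change was -1.48 (SE 0.063, edgeR adjusted p = 2.68e-15). In the table's coordinates 112 bases of Stab1 overlap Nt5dc2 on the opposite strand, which had a log2 fold change of -0.14 (SE 0.073, edgeR adjusted p = 0.115), and whether the counting used strand is not given in the sources used here.

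Marco, which binds bacteria and inhaled particles, was the only one of the 9 tested genes that rose. It lies on the minus strand of chromosome 1 from 120474538 to 120505024 (ENSMUSG00000026390) and had 146, 115 and 114 counts in control and 220, 223 and 230 counts in DB2313 libraries. All DB2313 libraries were above all control libraries, at 11.9, 13.1 and 12.5 CPM against 8.09, 6.69 and 6.96 CPM. The mean went from 7.25 ± 0.742 to 12.5 ± 0.579 CPM (SD, n = 3 each), or 1.72-fold higher. Its log2 fold change was 0.78 (SE 0.12, edgeR adjusted p = 1.20e-05), and it was 0.18 and not past the threshold (adjusted p = 0.187) when libraries were scaled to the T cell markers. Cd163 (ENSMUSG00000008845, chromosome 6 from 124304656 to 124330527) was near the lower limit of detection, with 32, 27 and 23 counts in the control libraries and 10, 14 and 7 counts with DB2313. The control libraries were higher in each case, and the log2 fold change was -1.45 with a standard error of 0.38 (adjusted p = 0.00322 from edgeR). Over the fits that each left out 1 library, the Cd163 value ranged from -1.77 to -1.22.

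**Figure D2:**
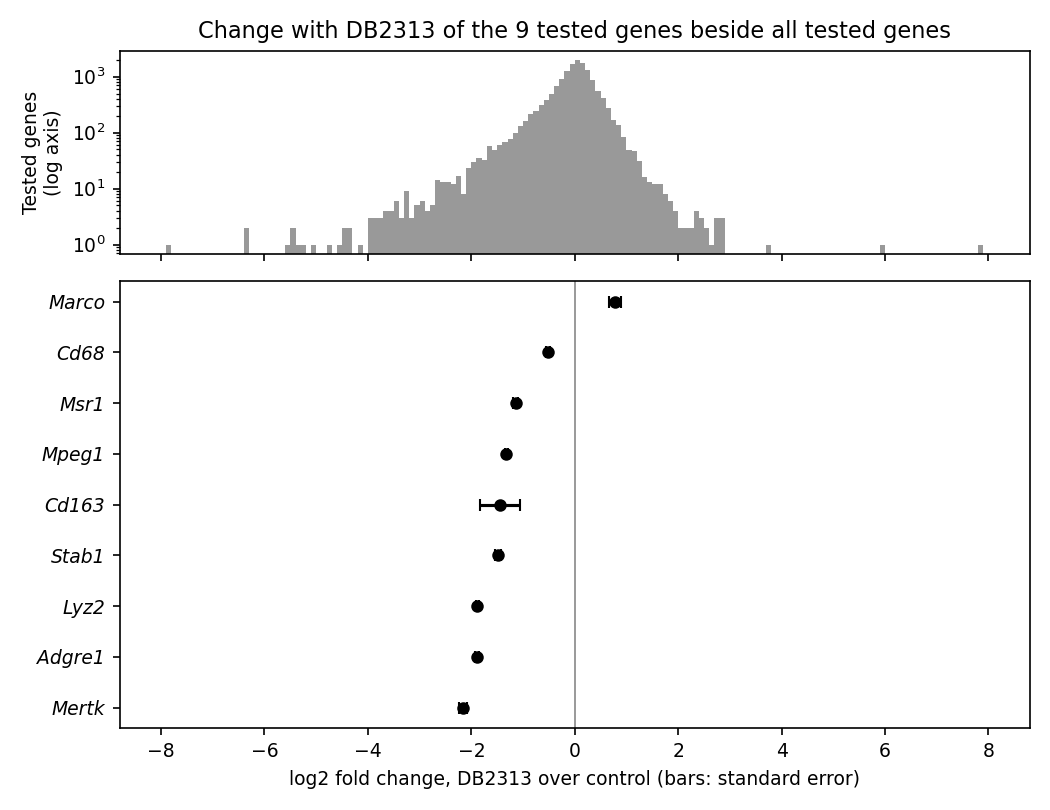
Log2 fold change of the 9 tested genes with DB2313 over control (points, with the standard error as bars, lower panel) under a histogram of all 14883 tested genes with a log axis for the number of genes (upper panel). Mertk, Adgre1 and Lyz2 lie at -2.16, -1.89 and -1.89, Cd68 lies nearest to 0, and Marco lies above 0. Cd68 turns to 0.23 with scaling to the other core macrophage genes.

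Levels of different genes were ordered per length, as CPM per kb of the gene length given in the table. In the control group the order was Lyz2 (5853 ± 101 CPM per kb), Mpeg1 (308 ± 0.986), Cd68 (156 ± 3.33), Adgre1 (91.8 ± 0.767), Msr1 (32.7 ± 0.915), Mertk (10.4 ± 0.339), Stab1 (7.24 ± 0.0902), Marco (3.77 ± 0.386), Lyz1 (0.499 ± 0.244) and Cd163 (0.290 ± 0.0338, all SD, n = 3). Neighbours in this order did not overlap between libraries, except for Lyz1 and Cd163. In the DB2313 group Marco stood in place 6, at 6.49 ± 0.301 CPM per kb, ahead of Stab1 at 2.59 ± 0.187 and Mertk at 2.32 ± 0.0809 (SD, n = 3 each). The order of the first 5 genes was the same in both groups. Again only Lyz1 and Cd163 overlapped as neighbours.

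Ratios of 2 genes within a library do not depend on how the libraries are scaled, and 5 such ratios were compared. The ratio of Adgre1 to Cd68 counts was 1.55, 1.53 and 1.48 in the control libraries and 0.597, 0.582 and 0.592 in the DB2313 libraries. Such a ratio of counts is compared between libraries and does not order the levels of the genes, since it is not per length. The log2 ratio fell by 1.36 between the groups, which is far more than its SD of 0.038 and 0.019 within them. The ratio of Marco to Msr1 counts was 0.0403, 0.0317 and 0.0331 in the control libraries and 0.129, 0.141 and 0.129 with DB2313, a difference of 1.93 in the log2 ratio. Mertk over Adgre1 had a difference of -0.27 in the log2 ratio, with SDs of 0.035 and 0.069 in the groups. In these 3 ratios the groups did not overlap, and the exact two-sided permutation test gave p = 0.1 for each, the smallest that this design allows, and 0.167 after Benjamini-Hochberg adjustment over the 5 ratios. Cd163 over Stab1 differed by -0.028 in the log2 ratio, with SDs of 0.17 and 0.47 in the groups and p = 1 by the same exact test. Lyz1 over Lyz2 differed by 0.69, with SDs of 0.66 and 0.69 and p = 0.3 by the exact test. Without DB2313 replicate 1 that difference was 0.32, and without control replicate 3 it was 1.05.

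**Figure D3:**
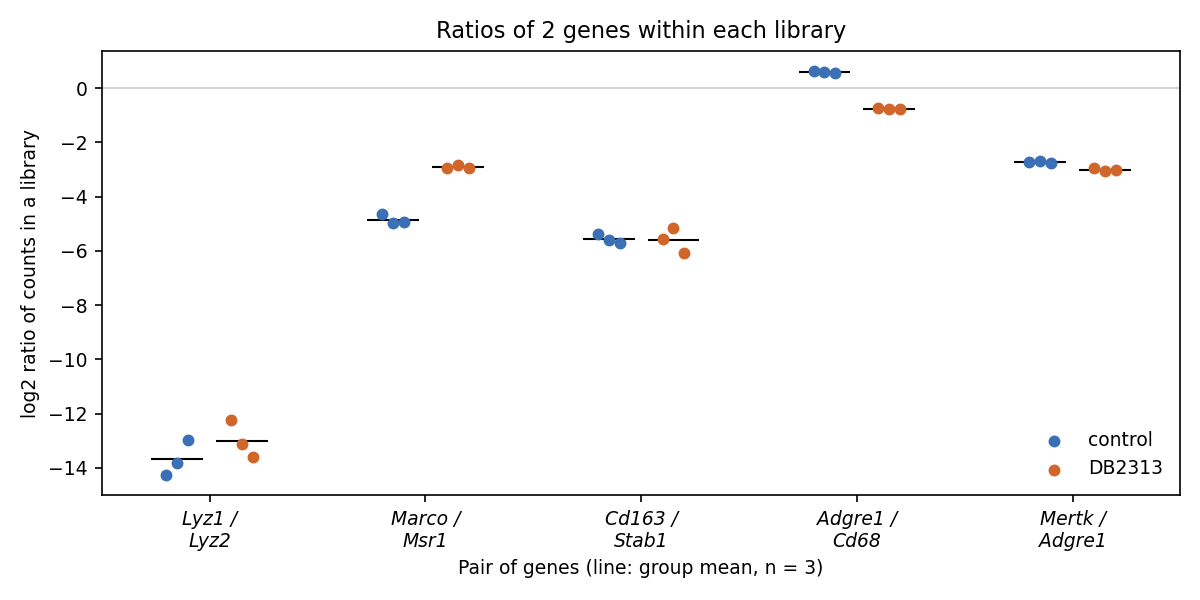
Log2 ratio of the counts of 2 genes in each library for 5 pairs of genes, with points for libraries and lines for group means (n = 3 each). The groups stand apart for Marco over Msr1, Adgre1 over Cd68 and Mertk over Adgre1, and they overlap for Lyz1 over Lyz2 and Cd163 over Stab1.

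The changes were also computed under other scalings, since T cell markers and macrophage genes moved in opposite directions. Over all tested genes, 3096 were higher and 3667 lower with TMM, 4931 and 2852 with library size scaling, and 4319 and 3102 with upper quartile scaling. With library size or upper quartile scaling, the 9 tested genes kept their directions and calls, with Marco at 0.88 and 0.85 and Cd68 at -0.43 and -0.46. When libraries were scaled to the summed counts of the T cell markers, the median log2 fold change of all tested genes moved from 0.019 to -0.58, with 155 genes higher and 11622 lower. Marco was then at 0.18, or 0.76 above that median, and Lyz2 was at -2.49, or -1.91 relative to it. When libraries were scaled to 30 other core macrophage genes, the median of all tested genes moved to 0.77, with 11980 genes higher and 694 lower. On that scale Lyz2 was at -1.14, Adgre1 at -1.14, Mertk at -1.41, Stab1 at -0.73, Mpeg1 at -0.58 and Msr1 at -0.39, so that these 6 genes fell by more than the summed core genes. Cd68 was at 0.23 (adjusted p = 1.79e-05 from edgeR) and Marco at 1.53 on the same scale, and Cd163 was at -0.71 (adjusted p = 0.0912).

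**Figure D4:**
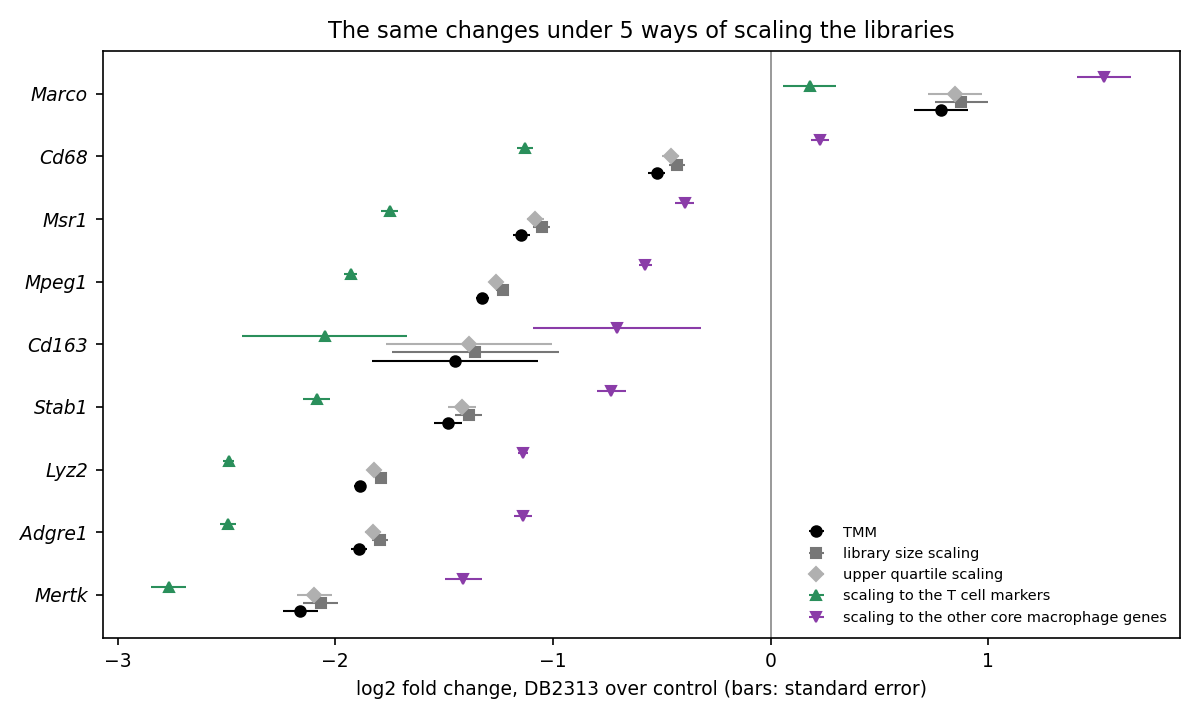
Log2 fold changes of the 9 tested genes (points, with standard errors as bars) under 5 ways of scaling the libraries, with 1 marker for each way. With scaling to the other core macrophage genes all values shift to the right and Cd68 turns above 0. With scaling to the T cell markers all values shift to the left and Marco comes to 0.18.

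The other core macrophage genes, a list of 30, moved in the same direction as most of the 10. Of its 29 tested genes, all 29 were lower and none was higher at an adjusted p below 0.05 in edgeR, against 24.6% and 20.8% of all genes. Their median log2 fold change was -0.88, beside 0.019 for all tested genes, and they ranged from -2.16 to -0.16. With scaling to the summed counts of this list itself, 15 were lower and 7 higher, beside 694 lower and 11980 higher of 14883 tested genes. The largest falls were those of the chemokine gene Ccl9, from 314 ± 5.29 to 70.3 ± 5.85 CPM (SD, n = 3 each), the integrin gene Itgam, from 213 ± 1.89 to 59.9 ± 3.51 CPM, and the complement gene C1qa, from 232 to 70.8 CPM at a log2 fold change of -1.71 (SE 0.043, edgeR adjusted p = 1.15e-19). Spi1, the factor that DB2313 inhibits and a member of this list, went from 286 ± 6.75 to 156 ± 6.20 CPM (SD, n = 3 each), with a log2 fold change of -0.88 (SE 0.037, edgeR adjusted p = 2.58e-15).

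Among 18 other scavenger receptor genes, 15 were tested, and 9 of these were lower and none was higher, beside 24.6% lower and 20.8% higher among all tested genes. Their median log2 fold change was -0.69. Cd36, the fatty acid and oxidised lipoprotein receptor, went from 146 ± 2.61 to 30.8 ± 2.77 CPM (SD, n = 3 each), a log2 fold change of -2.25 (SE 0.054, edgeR adjusted p = 6.68e-20). The beta-glucan receptor Clec7a, annotated as a polymorphic pseudogene in the table, was at -1.29 (SE 0.042), and Cxcl16, which is both a chemokine and a receptor for oxidised lipoprotein, was at -1.15 (SE 0.042). With TMM scaling no gene of this list rose past the threshold as Marco did, and 6 tested genes did not pass in either direction. Of these, Ssc5d, Scarf2 and Megf10 were below 0, and Colec12, Ager and Stab2 were above 0. Stab2 was at 0.77 (SE 0.48), with only 28 counts in the control and 50 in the DB2313 libraries together.

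Of 22 genes of apoptotic cell uptake, 19 were tested, of which 10 were lower and 3 higher, with a median log2 fold change of -0.17. Among all tested genes 24.6% were lower and 20.8% higher, so the 3 higher genes lie near the background. The related kinase gene Axl fell from 274 ± 7.50 to 120 ± 1.45 CPM (SD, n = 3 each), with a log2 fold change of -1.19 (SE 0.036, edgeR adjusted p = 4.26e-18). Dock1, a guanine nucleotide exchange factor for Rac1, was at -0.96 (SE 0.11), and the endocytic receptor gene Lrp1, which is also in the scavenger receptor list, was at -0.92 (SE 0.049). Gas6, the bridging ligand of Mertk, Axl and Tyro3, rose from 12.2 ± 1.64 to 22.8 ± 1.93 CPM (SD, n = 3 each), with a log2 fold change of 0.89 (SE 0.10, edgeR adjusted p = 1.76e-07). Tyro3, the third kinase of the family, was at 0.36 (SE 0.095, edgeR adjusted p = 0.00347) and the integrin gene Itgb3 at 0.43 (SE 0.039), but both turned below 0 with scaling to the T cell markers, at -0.25 and -0.18. Thus, in these libraries, Mertk and Axl were lower while their ligand Gas6 and the kinase Tyro3 were higher with TMM scaling.

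Of 17 genes of resident and peritoneal macrophages, 9 were tested, 2 were lower and 3 higher, with a median log2 fold change of -0.19. These counts lie near the 24.6% lower and 20.8% higher of all tested genes and are no result about the list. Timd4, Gata6, Lyve1, Folr2 and Clec4f, which mark resident macrophages, had at most 6 counts over the 3 control libraries together, and Vsig4 had no count in any library, which allows up to 1.81e-05% of the counts of the smallest library for counting error only. The heme oxygenase gene Hmox1 went from 102 ± 4.12 to 62.2 ± 0.536 CPM, and the adhesion gene Icam2, which T cells and endothelial cells also express, from 31.3 ± 1.77 to 46.4 ± 2.56 CPM (SD, n = 3 each). The iron exporter gene Slc40a1 was at 0.18 (SE 0.069, edgeR adjusted p = 0.0383), and the call was lost with DESeq2, without the filter on low counts, with the replicate block and in 4 of the 6 fits that left out 1 library. With scaling to the T cell markers Icam2 turned to -0.035 and Slc40a1 to -0.42, and with scaling to the other core macrophage genes Hmox1 turned to 0.033.

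Markers of other cell types moved as well. Among 9 dendritic cell markers, 8 were tested, and 5 were lower and 2 higher, beside 24.6% and 20.8% of all tested genes. Their summed share went from between 0.0257% and 0.0265% to between 0.0208% and 0.0216%, and Siglech was at 0 in all libraries. The 5 lower markers ranged from Cd209a at -3.54 to Zbtb46 at -0.44, with Itgax at -2.52. The 2 higher ones were Clec10a at 1.18 and Flt3 at 0.36, so the summed share joins opposite changes. Of 7 myeloid progenitor markers, 6 were higher and 1 lower, beside 20.8% and 24.6% of all tested genes. The lower one was Cd34, at a log2 fold change of -3.02 (SE 0.082), and Kit was at only 0.13 (SE 0.048). Elane was at 1.13, Mpo at 0.95, Prtn3 at 0.94, Ctsg at 0.92 and Ms4a3 at 0.52. The median log2 fold change of the 7 was 0.92, and their summed share went from between 0.0607% and 0.0631% to between 0.109% and 0.110%. None of these 7 was at 0 in all libraries. Of 7 B cell markers, 4 were higher and 1 lower, beside 20.8% and 24.6% of all tested genes, with a median of 0.46. Of 8 endothelial and stromal markers, 5 were tested. Of these, 3 were higher and none lower, beside the same shares of all tested genes, with a median of 0.15. Cdh5 among them was at 2.43 (SE 0.50), with 10 counts in the control and 58 in the DB2313 libraries together. The part of these cell types in the values of the 10 genes was not tested.

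**Figure D5:**
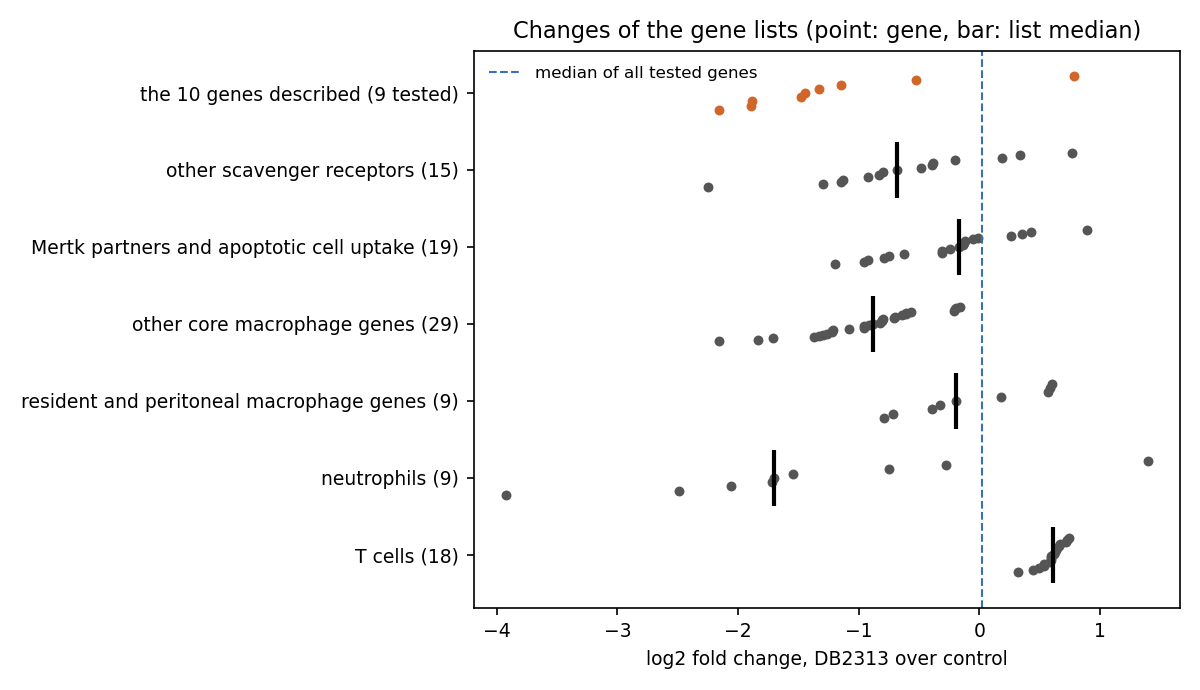
Log2 fold change with DB2313 over control of each tested gene (points) in the 10 genes described and in 6 lists, with a bar for the median of each list and a dashed line for the median of all tested genes. The other core macrophage genes lie below 0, the T cell markers lie above 0, and the Mertk partners lie on both sides. Scaling to the T cell markers turned Tyro3 and Itgb3 in the Mertk list, and scaling to the other core macrophage genes turned Cd68.

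Genes with a pattern like that of a member were sought among 9333 or 9334 other protein-coding genes that averaged 10 CPM or more, by the distance between log2 CPM values centred on their mean over the 6 libraries. The gene nearest to Lyz2 was Adgre1, at a distance of 0.063, followed by Rnase6 at 0.079 and Hepacam2 at 0.094. The genes nearest to Adgre1 were Lyz2, Hepacam2 at 0.086 and Pla2g7 at 0.098. The genes nearest to Marco were Tgtp1 at 0.175, St3gal6 at 0.178 and Ifi209 at 0.181, of which Tgtp1 and Ifi209 belong to families of similar genes whose reads could be divided uncertainly. Marco had no neighbour as close as those of Lyz2 and Adgre1. Its coefficient of variation in the control libraries was 10.2%, against 8.94% from counting alone. For Lyz2 these values were 1.73% and 0.275%. The part of counting error in the larger distances of Marco was not tested.

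Promoter sequences were examined because Spi1 binds sites with a GGAA core, often within GAGGAAGT. RefSeq windows of GRCm38.p6, from 250 bases before to 50 bases after the transcription start, matched 8 of the 10 genes, and Adgre1 and Msr1 had no entry. The motifs were searched on both strands, and GGAA lies within the other 2. None of the 8 windows held GAGGAAGT, which 3.2% of all 32851 windows held. GAGGAA was found in Cd68 (2 matches), Marco (1) and Stab1 (1), and in 28.3% of all windows. GGAA was found in each of the 8, with between 1 match in Mpeg1 and 7 in Marco, and in 96% of all windows. The 250 bases upstream of Lyz2 (chr10:117282273-117282522, minus strand), Lyz1 (chr10:117292869-117293118, minus strand), Marco (chr1:120505025-120505274, minus strand) and Stab1 (chr14:31168642-31168891, minus strand) are shown, the first pair as close copies with unequal counts and the second pair as scavenger receptors that moved in opposite directions. Upstream refers to the RefSeq start. In the coordinates deposited with the counts, Lyz2 reaches to base 117282321, so the last printed bases of its stretch lie within that gene. Capitals mark GGAA on either strand, and GAGGAA where present.
Lyz2: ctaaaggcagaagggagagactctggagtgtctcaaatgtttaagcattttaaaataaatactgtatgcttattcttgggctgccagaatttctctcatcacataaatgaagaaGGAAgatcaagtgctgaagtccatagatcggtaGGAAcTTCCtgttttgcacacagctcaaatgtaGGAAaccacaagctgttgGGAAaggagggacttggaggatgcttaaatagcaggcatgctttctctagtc
Lyz1: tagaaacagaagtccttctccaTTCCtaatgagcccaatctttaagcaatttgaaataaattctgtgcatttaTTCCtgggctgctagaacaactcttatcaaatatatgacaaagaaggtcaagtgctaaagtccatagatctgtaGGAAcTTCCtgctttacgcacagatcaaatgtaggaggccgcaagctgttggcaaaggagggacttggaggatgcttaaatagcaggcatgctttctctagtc
Marco: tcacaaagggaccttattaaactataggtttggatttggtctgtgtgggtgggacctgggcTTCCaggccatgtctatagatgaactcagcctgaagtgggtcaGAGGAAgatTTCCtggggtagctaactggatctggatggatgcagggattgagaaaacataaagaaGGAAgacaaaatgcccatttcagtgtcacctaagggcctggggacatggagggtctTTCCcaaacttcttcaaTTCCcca
Stab1: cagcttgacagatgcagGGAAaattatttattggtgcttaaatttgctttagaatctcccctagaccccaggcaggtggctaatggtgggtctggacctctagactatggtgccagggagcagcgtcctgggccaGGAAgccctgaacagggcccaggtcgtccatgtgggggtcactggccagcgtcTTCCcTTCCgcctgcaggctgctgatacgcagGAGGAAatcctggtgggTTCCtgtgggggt
The Lyz2 window, with 5 GGAA matches on both strands together, and the Lyz1 window, with 4, belong to genes whose levels per length differed by 5853 against 0.499 CPM per kb in the control group. Marco and Stab1 each held 1 GAGGAA match on the strand of the gene, while Marco was higher and Stab1 lower with DB2313. A match is a description of these letters and was not measured as a bound site. Any link of the matches to the level or change of a gene was not tested.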

How the data were processed

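RNA-seq was compared between 3 control and 3 DB2313 libraries, grouped by the treatment label of each sample. Per the labels, the submitters' processing notes name CASAVA 1.8, HISAT2 2.0.5 and featureCounts 1.5.0-p3, whereas the study's methods name LifeScope. The authors deposited raw counts per gene with gene coordinates and lengths. How multiply matching reads were counted and whether strand was used are not given in the sources used here. Of the genes in the table, 98.3% had the coordinates of GENCODE M21 (GRCm38), and of the 10 genes described only Mpeg1 differed, at its end by 1 base.

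Library totals ranged from 16611975 to 18596217. Genes were filtered with filterByExpr, which kept 14883 of 54532, scaled with TMM and tested with edgeR 4.0.16 in R 4.3.3 (glmQLFit and glmQLFTest, no covariate, Benjamini-Hochberg adjustment, threshold 0.05). Standard errors were the absolute log2 fold change divided by the square root of F. Checked on simulated data with 200 changed genes for this comparison (14874 genes run), edgeR called 188 of the 194 that passed the filter and 11 unchanged genes. The simulation had few changed genes, as many up as down, while 6763 genes were called in the data. It therefore could not test the scaling or the error rate under such a broad shift. Ratios within libraries were tested with the exact two-sided permutation test. A count of 0 was taken to allow 3 counts, for counting error only. Alternatives were DESeq2 1.42.0, other scalings and filters, protein-coding genes alone, a replicate block, and leaving out each library.

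The 10 genes and all lists were chosen with earlier results of these data known, so list counts are descriptions. Named besides the 10 genes were up to 3 genes per list and direction with the largest change among those called with at least 5 CPM in the higher group, genes that overlap a member, the 3 most similar genes of Marco, Lyz2 and Adgre1, and Spi1. Genes described at or near 0 counts and the range of each list were added after their values were seen. Promoters came from RefSeq (GRCm38.p6), transcripts from GENCODE M21.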

Additional observations from a re-analysis of the deposited data

How the results depend on the processing

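Of 144 values of the 9 tested genes under the alternatives, 139 stayed in direction and on the same side of the threshold, 4 lost the call and 1 reversed. The number of genes higher went from 1 to 0 with scaling to the T cell markers and with an absolute log2 fold change above 1 required, and to 2 with scaling to the other core macrophage genes. That last scaling reversed Cd68 to 0.23 and Hmox1 to 0.033, and scaling to the T cell markers reversed Itgb3 to -0.18, Tyro3 to -0.25, Icam2 to -0.035 and Slc40a1 to -0.42. These shifts follow from the construction of the scalings. Leaving out each library in turn gave 8 lower and 1 higher of the 10 genes each time, with Marco between 0.73 and 0.87.

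With scaling to the other core macrophage genes, the scavenger receptor list had 5 lower and 5 higher, and the Mertk partners 2 lower and 12 higher. The core list then had 15 lower and 7 higher, and the resident list 0 lower and 6 higher. Of all 14883 tested genes, 694 were lower and 11980 higher on that scale. With scaling to the T cell markers, the Mertk partners had 17 lower and 1 higher, and the resident list 6 lower and 0 higher. Of all 14883 tested genes, 11622 were then lower and 155 higher. With the fold threshold, lower genes numbered 4 among scavenger receptors, 1 among Mertk partners, 11 in the core list and 0 in the resident list. Higher genes by that rule numbered 0 among Mertk partners and 0 in the resident list. Among all tested genes, 5.3% were lower and 1.37% higher by the same rule. Without 1 library, the scavenger receptor list had 0 to 1 higher (1 without DB2313 replicate 3). The resident list was unstable. It had 1 lower with DESeq2, library size scaling, upper quartile scaling or no filter, 1 higher with DESeq2 or no filter, 1 to 2 lower without 1 library (1 without control replicate 2, control replicate 3, DB2313 replicate 2 or DB2313 replicate 3) and 1 to 3 higher (1 without control replicate 1). The cause was not tested. The log2 ratio of Cd163 over Stab1 moved to 0.018 with 0.5 counts added and ranged from -0.25 to 0.22 without 1 library, so it had no stable sign.

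Replicate numbers showed no sign of pairing the samples, although the sources used here do not give how the samples were set up. Same-numbered libraries had correlations of 0.0025, -0.011 and -0.0051 of their deviations from the group means. A fit with the replicate block called 6437 genes against 6763, left the 10 genes at 8 lower and 1 higher, and put the resident list at 1 lower and 1 higher. Requiring at least 10 counts in every library left Cd163 and Lyz1 out, which therefore could not be fitted. Depth limits Lyz1 and Cd163, with at most 32 counts in a library.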
